A study of Mus musculus with 12 samples.

Results

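The mouse genes described here were 10 regulators of apoptosis and markers of proliferation: Bcl2, Bcl2l1, Bax, Bid, Casp8, Fadd, Trp53, Cdkn1a, Birc5 and Cdk1. They were taken by gene symbol, all 10 were found among the 770 genes of the nCounter mouse PanCancer Immune Profiling Panel, and none was left out for a low count. The panel counts RNA molecules directly with barcoded probes, without amplification. It was run on total RNA from 12 A20 tumors, each from a separate mouse. A20 is a lymphoma line of mouse B cells, and its cells had been placed under the skin of female Balb/c mice (the labels used here give no age). Starting about 7 days later, 4 tumors were injected with PBS, 4 with GLA-SE (G100 in the study's naming) and 4 with SE. GLA-SE was 10 ug of GLA, a synthetic agonist of Toll-like receptor 4, in 50 ul of a 2% stable oil-in-water emulsion, and SE was the emulsion without GLA. Each tumor received 3 injections, given every other day, and was collected 2 h after the last one. The model is a single transplanted cell line, and whole tumors were measured, so the RNA came from A20 cells together with host cells.

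In the mitochondrial pathway of apoptosis, Bcl2 and the Bcl2l1 product Bcl-xL hold back Bax, which permeabilizes the outer mitochondrial membrane. In the death receptor pathway, Fadd couples ligand-bound receptors to Casp8, and Casp8 can cleave Bid, which links both pathways. The transcription factor p53, encoded by Trp53, can induce Bax and Cdkn1a, whose product p21 inhibits cyclin-dependent kinases. Cdk1 drives entry into mitosis, and Birc5 encodes survivin, which acts in chromosome segregation and as an inhibitor of apoptosis and is used as a marker of dividing cells. B cell lymphomas are known for their dependence on BCL2 family members.

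Start regions of 4 of the genes are printed because they carry letters of well-known regulatory elements and belong to the genes that moved most and to both proliferation markers. Each is the 120 bases before the RefSeq start, on the strand of the gene, in build GRCm38.p6. Capitals mark matches to the p53 half-site in Cdkn1a (chr17:29090859-29090978, plus strand, the start of its upstream transcript), to GGGCGG or its reverse complement, the GC box, in Bcl2 (chr1:106714291-106714410, minus strand), to an NF-kB type decamer, found as GGGACTTTCC and searched with any base at the middle C, in Birc5 (chr11:117849117-117849236, plus strand) and to TTTGAA, the core of the CHR element of mitotic genes, in Cdk1 (chr10:69352913-69353032, minus strand).
Cdkn1a: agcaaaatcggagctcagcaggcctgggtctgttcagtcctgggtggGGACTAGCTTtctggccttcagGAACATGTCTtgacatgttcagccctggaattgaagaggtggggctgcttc
Bcl2: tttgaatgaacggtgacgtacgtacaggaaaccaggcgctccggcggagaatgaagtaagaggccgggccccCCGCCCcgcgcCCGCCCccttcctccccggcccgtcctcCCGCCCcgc
Birc5: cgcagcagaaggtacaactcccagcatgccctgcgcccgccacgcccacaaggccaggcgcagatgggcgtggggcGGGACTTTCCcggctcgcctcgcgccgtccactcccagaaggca
Cdk1: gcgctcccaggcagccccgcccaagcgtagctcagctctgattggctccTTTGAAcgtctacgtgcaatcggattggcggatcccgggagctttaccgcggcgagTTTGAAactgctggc
The Cdkn1a sequence held 2 half-sites, the Bcl2 sequence 3 GC boxes, the Birc5 sequence 1 decamer and the Cdk1 sequence 2 copies of TTTGAA. These are matches of letters on either strand in 1 window and were not measured as bound. Windows from 250 bases before to 50 bases after each of 32851 RefSeq starts held the p53 half-site in 8.36%, the decamer in 0.411%, TTTGAA in 17.9% and the GC box in 35.7%. The 10 genes had 13 such windows. The decamer was found in those of Birc5 and Trp53, the p53 half-site in those of Bax, Birc5, Cdkn1a and Trp53, and TTTGAA in those of Bax, Bcl2, Casp8 and Cdk1. The GC box was found in 7 of the 13 windows, those of Bax, Bcl2, Bid, Birc5, Cdk1, Cdkn1a and Fadd. In the printed sequences the Birc5 decamer shared bases with a GC box, and no other capitals overlapped a match to another of these motifs.

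Total counts were 812522 to 1086462 in PBS, 1186487 to 1612415 in GLA-SE and 810260 to 1268512 in SE tumors. Counts are given below as reference-scaled counts, the count divided by a factor from the geometric mean of 16 reference genes in the same tumor, and levels were not compared between genes because probes differ in efficiency. Replicate 4 of the SE group stood apart: its reference genes had a geometric mean of 927 counts, against 1693 to 2558 in the PBS and GLA-SE tumors, and its 8 endothelial and fibroblast markers summed to 118397 reference-scaled counts, against 3171 to 27604 in the other SE tumors. For some genes and ratios, comparisons with SE are therefore also given without it. All 7 B cell markers were measured in every tumor and summed to between 12525 and 21376.

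In GLA-SE against PBS tumors, 3 of the 10 genes were higher (Bcl2, Casp8 and Cdkn1a) and 0 were lower at an adjusted p under 0.05 in edgeR's quasi-likelihood test. Of all 750 genes tested, 68.8% were called, 68.4% as higher and 0.4% as lower, so the share of called genes was smaller here than over the panel. The median log2 fold change was 0.08 for the 10 genes and 0.90 for all genes tested, and 8 of the 10 lay below the panel's median. The 4 GLA-SE tumors were all above the 4 PBS tumors for the same 3 genes, against 63.7% of the panel, and all below them for Birc5, against 1.07%. These directions are relative to the reference genes. When tumors were scaled to the panel's median instead, which moved the median of all genes to -0.40, 1 of the 10 genes was higher and 8 lower, against 8.13% and 40.9% of the panel. Under TMM scaling 2 were higher and 8 lower, against 19.7% and 22.4%.

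**Figure D1:**
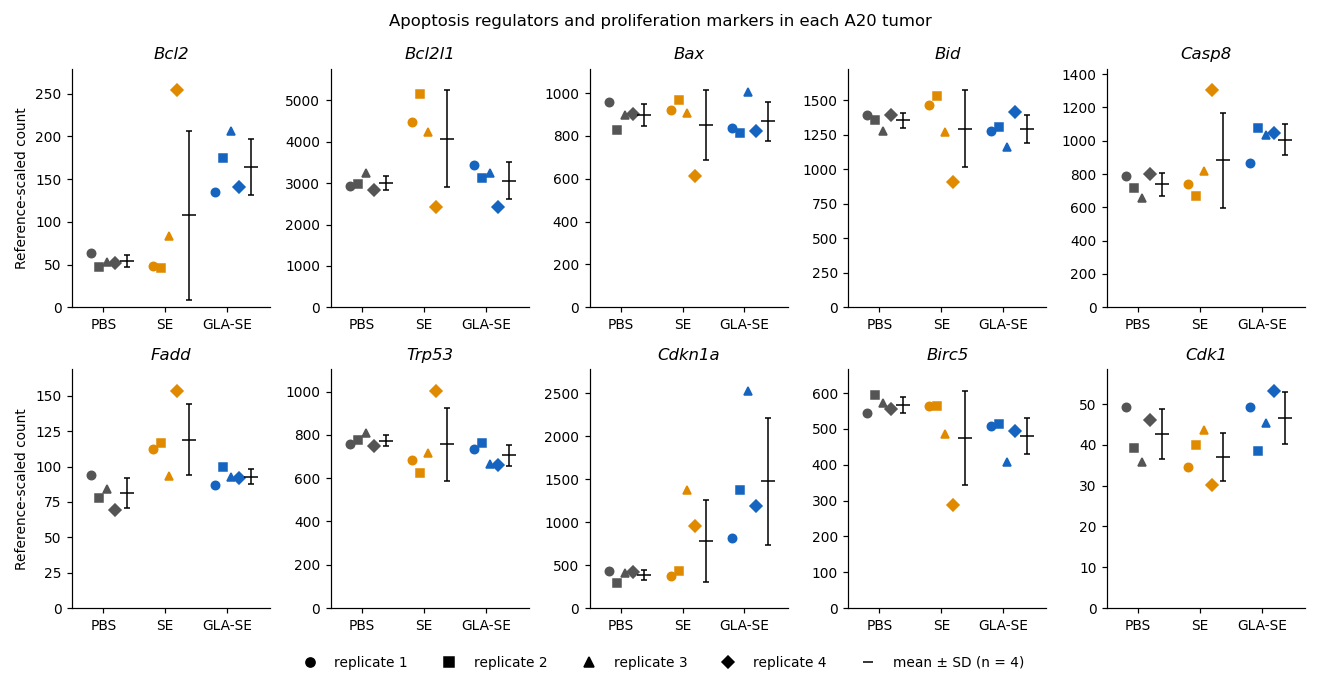
Reference-scaled counts (vertical axes, linear and starting at 0) of the 10 genes in each of 12 tumors, by treatment group. Symbols mark the replicate and black bars the mean and SD of 4 tumors; for Bcl2 and Cdkn1a the 4 GLA-SE tumors lie above every PBS tumor, while SE replicate 4 is the highest tumor for Bcl2, Casp8, Fadd and Trp53 and the lowest for Bax, Bid, Birc5 and Cdk1.

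Bcl2, the anti-apoptotic gene first known from B cell lymphoma, had reference-scaled counts of 63.5, 47.6, 53.3 and 51.7 in the PBS tumors and of 134, 175, 206 and 141 in the GLA-SE tumors. The SE tumors had 48.0, 46.0, 83.5 and 254. Every GLA-SE tumor was thus above every PBS tumor, and SE replicate 4 was above all others. Bcl2 was 3.03-fold higher in GLA-SE than in PBS tumors (log2 fold change 1.60, 95% interval 1.13 to 2.08, adjusted p = 0.000428, edgeR). Leaving out each tumor in turn gave values from 1.47 to 1.69, while panel median scaling left 0.30 with an adjusted p of 0.176. Bcl2 is also expressed by T cells and other host leukocytes, and in whole tumors more cells of a type and more RNA per cell cannot be told apart. All 6 monocyte and macrophage markers were higher in GLA-SE than in PBS tumors, and their sum ranged from 2457 to 3452 in PBS, from 7261 to 17996 in GLA-SE and from 1973 to 14746 in SE tumors. Of 6 T cell markers 3 were higher, a smaller share than the panel's 68.4%, with sums of 683 to 2074, 2028 to 2871 and 597 to 4254. Under panel median and TMM scaling 2 and 5 of the monocyte and macrophage markers and 0 of the T cell markers were called higher. Of the panel, 8.13% and 19.7% were. The part of these cells in the change of Bcl2 was not tested.

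Bcl2l1, the other anti-apoptotic member, had 2920, 2975, 3238 and 2843 reference-scaled counts in PBS tumors, and 3448, 3123, 3241 and 2414 in GLA-SE tumors. In SE tumors it had 4481, 5161, 4250 and 2427. The PBS and GLA-SE groups overlapped, with a log2 fold change of 0.03 (95% interval -0.24 to 0.30, adjusted p = 0.827, edgeR). SE replicates 1 to 3 lay above all PBS and GLA-SE tumors, and SE replicate 4 lay among the lowest.

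Bax, the effector of the mitochondrial pathway, ranged from 830 to 959 in PBS, from 812 to 1005 in GLA-SE and from 611 to 966 in SE tumors. Bid, which carries the death receptor signal to mitochondria, ranged from 1276 to 1397, from 1166 to 1414 and from 910 to 1530. Neither gene separated the groups. The GLA-SE against PBS log2 fold changes were -0.05 for Bax (95% interval -0.30 to 0.20) and -0.07 for Bid (-0.29 to 0.15), with adjusted p of 0.715 and 0.528 in edgeR's test.

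Casp8, the initiator caspase of death receptors, had 790, 716, 653 and 800 reference-scaled counts in PBS tumors, 868, 1074, 1037 and 1047 in GLA-SE tumors and 739, 667, 817 and 1303 in SE tumors. The GLA-SE tumors were all above the PBS tumors, by 1.36-fold (log2 fold change 0.44, 95% interval 0.18 to 0.71, adjusted p = 0.00935, edgeR). That direction held with the reference genes and turned with other scalings, to -0.46 under TMM and -0.84 under panel median scaling, and the call was lost with all 12 tumors in 1 fit (adjusted p = 0.0996) and without rescaling (0.15, adjusted p = 0.372). Fadd, the adaptor that recruits Casp8, ranged from 69.2 to 93.8 in PBS, from 87.1 to 99.9 in GLA-SE and from 93.4 to 153 in SE tumors. Its GLA-SE and PBS tumors overlapped, with a log2 fold change of 0.20 (95% interval -0.20 to 0.59, adjusted p = 0.328, edgeR).

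Trp53, which encodes p53, had 759, 774, 808 and 751 reference-scaled counts in PBS tumors and 733, 761, 667 and 662 in GLA-SE tumors, which overlapped (log2 fold change -0.13, 95% interval -0.35 to 0.09, adjusted p = 0.251, edgeR). The SE tumors had 683, 626, 717 and 1003. Cdkn1a, which encodes the cell cycle inhibitor p21, had 431, 295, 403 and 414 in PBS tumors. It had 812, 1373, 2525 and 1193 in GLA-SE tumors and 371, 426, 1370 and 960 in SE tumors. All GLA-SE tumors were above all PBS tumors, and among the SE tumors replicates 1 and 2 lay within the range of the PBS tumors and replicates 3 and 4 within that of the GLA-SE tumors. Cdkn1a was 3.82-fold higher in GLA-SE than in PBS tumors (log2 fold change 1.93, 95% interval 1.19 to 2.68, adjusted p = 0.00132, edgeR), the largest change of the 10 genes. It was 1.54 without GLA-SE replicate 3, the highest tumor.

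The spread of Cdkn1a within the SE and GLA-SE groups ran partly beside that of monocyte and macrophage markers. These 6 markers summed to 2363, 1973, 9814 and 14746 in SE replicates 1 to 4. Their sum was 17996 in GLA-SE replicate 3 against 7261 to 8927 in the other GLA-SE tumors. The order was not the same throughout: SE replicate 3 was above replicate 4 for Cdkn1a and below it for the markers. Among PBS tumors, Cdkn1a was lowest in replicate 2 and the marker sum in replicate 3. The parallel was not particular to these markers. Neutrophil markers summed to 189, 169, 630 and 1174 in SE replicates 1 to 4. In GLA-SE replicate 3 they summed to 9174, against 820 to 2194 in the other GLA-SE tumors. Endothelial and fibroblast markers summed to 3171, 4031, 27604 and 118397 in the SE tumors. In GLA-SE replicate 3 their sum was 21598, within the 17597 to 25498 of the GLA-SE group. Across the 12 tumors, the genes most like Cdkn1a of 673 searched were Cd86 (Spearman rho 0.95), a costimulatory molecule of antigen-presenting cells, Clec7a (0.94), the myeloid receptor Dectin-1, and Gfi1 (0.94), a transcriptional repressor of blood cells. The 12 tumors share scaling and treatment groups, so these correlations are descriptions. Without SE replicate 4 they were 0.99, 0.96 and 0.95 over 11 tumors. The part of myeloid and other host cells in the level of Cdkn1a was not tested.

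Birc5, which encodes survivin, had 544, 594, 571 and 555 reference-scaled counts in PBS tumors, 507, 513, 407 and 495 in GLA-SE tumors and 564, 563, 486 and 286 in SE tumors. Each GLA-SE tumor was below each PBS tumor, but the difference did not pass the threshold, with a log2 fold change of -0.24 (95% interval -0.50 to 0.03, adjusted p = 0.0985, edgeR). With all 20 reference genes it was -0.32 (adjusted p = 0.0434), and it was lower in all scalings tried. Cdk1, the mitotic kinase, had 49.3, 39.2, 35.8 and 46.1 in PBS tumors, 49.3, 38.5, 45.3 and 53.2 in GLA-SE tumors and 34.6, 39.9, 43.6 and 30.3 in SE tumors. The groups overlapped, and the GLA-SE against PBS log2 fold change was 0.13 (95% interval -0.31 to 0.57, adjusted p = 0.561, edgeR). The deposited counts of Cdk1 were only 15 to 58, so its interval is wide, and the 2 proliferation markers did not share a direction on the reference scale.

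Birc5 was most like Ms4a1 (rho 0.91), which encodes the B cell antigen CD20, Anp32b (0.89), a nuclear histone chaperone, and Nup107 (0.88), a nuclear pore protein. B cell markers moved with it: Ms4a1 fell from 8044 to 10239 in PBS tumors to 6009 to 7693 in GLA-SE tumors (log2 fold change -0.44, adjusted p = 0.00781, edgeR), Cd79b also fell (-0.41, adjusted p = 0.00637), and the other 5 of 7 B cell markers did not pass the test. The B cell markers summed to 18175 to 21376 in PBS, 14607 to 17026 in GLA-SE and 12525 to 20532 in SE tumors, sums to which Ms4a1 and Cd79b contribute most of the counts. The mean log2 level over the 7 markers overlapped between the groups, at 9.93 to 10.14 in PBS and 9.78 to 10.07 in GLA-SE tumors. Their part in the level of Birc5 was not tested, but the ratio of Birc5 to the geometric mean of the B cell markers is given below. The genes most like Cdk1 were Tlr9 (0.72), a receptor for CpG DNA, Tigit (0.69), an inhibitory receptor of T and NK cells, and Klrc1 (0.67), an NK cell receptor. Those most like Bcl2l1 were Mef2c (0.83), a transcription factor of B cells, C8a (0.83), a complement component, and Il16 (0.83), a chemoattractant of CD4+ cells.

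**Figure D2:**
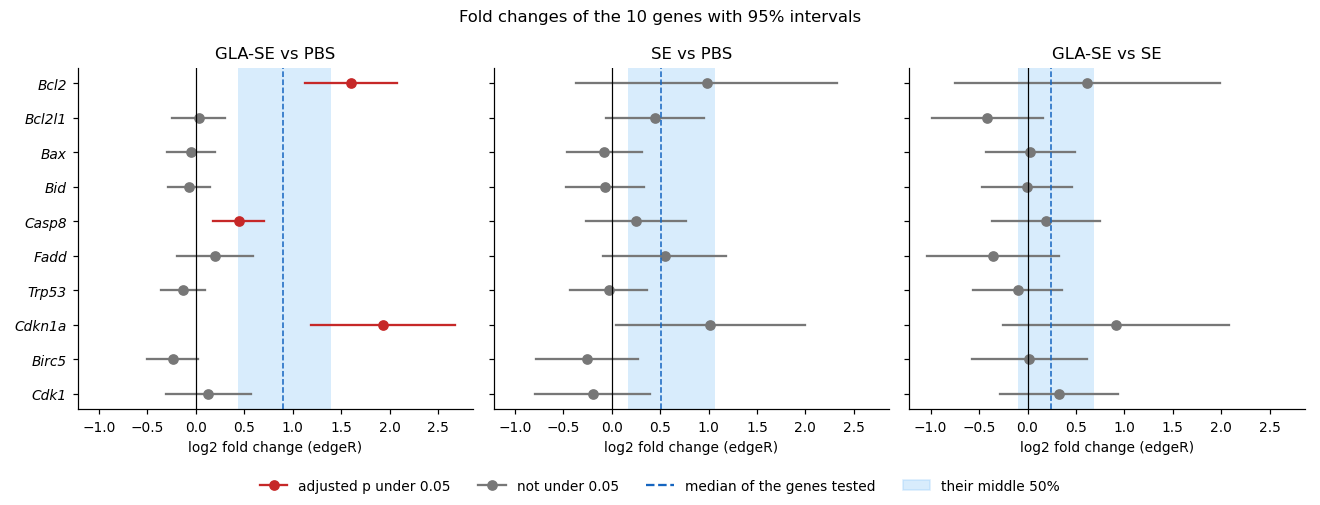
Log2 fold changes from edgeR (horizontal axes) with 95% intervals for the 10 genes in 3 comparisons of 4 against 4 tumors, red where the adjusted p was under 0.05. The dashed line is the median of the 750 genes tested and the band the middle 50% of them; in GLA-SE against PBS tumors the intervals of 7 genes include 0, while the panel's median lies at 0.90, and in both comparisons with SE no gene is red.

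In SE against PBS tumors, 0 of the 10 genes and 0% of the panel passed the threshold in edgeR's test, with 1 of the 10 (Cdkn1a) and 134 of 750 genes at an unadjusted p under 0.05, and DESeq2 called 38 panel genes. None of the 10 separated the groups, against 8% of the panel for higher and 1.2% for lower values. The largest differences were those of Cdkn1a (log2 fold change 1.02, 95% interval 0.04 to 2.00, unadjusted p = 0.0431, adjusted p = 0.256), Bcl2 (0.98, -0.36 to 2.33), Fadd (0.55, -0.08 to 1.18) and Bcl2l1 (0.45, -0.06 to 0.95). Bcl2 rested on SE replicate 4, and was 0.12 without it. Bcl2l1 was 0.63 without that tumor, and Cdkn1a 0.60 without SE replicate 3, with no call in any of these fits. For Bax, Bid, Trp53 and Casp8 the values were -0.08, -0.07, -0.03 and 0.25. Without SE replicate 4 they were 0.05, 0.07, -0.20 and 0.002.

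In GLA-SE against SE tumors, again 0 of the 10 genes passed, against 2.13% of the panel (16 genes, all higher), and the number at an unadjusted p under 0.05 was 0 of 10 and 139 of 750. None of the 10 separated the groups, against 14.7% of the panel for higher values. Cdkn1a had a log2 fold change of 0.92 (95% interval -0.25 to 2.08, adjusted p = 0.385, edgeR), Bcl2 of 0.62 (-0.75 to 1.98, adjusted p = 0.680) and Bcl2l1 of -0.42 (-0.99 to 0.16, adjusted p = 0.437). Without SE replicate 4, Bcl2 was higher in GLA-SE tumors (1.48, adjusted p = 0.0323) and Bcl2l1 lower (-0.60, adjusted p = 0.0497), beside 13.9% of the panel higher and 0.133% lower. These intervals leave room for differences of more than 2-fold in Bcl2 and Cdkn1a, and for Bax (0.03, -0.43 to 0.49) and Bid (-0.0035, -0.46 to 0.46) they are narrower.

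Ratios between 2 genes of the same tumor do not depend on how tumors are scaled. The ratio of Bax to Bcl2 counts, often used to describe the balance of pro- and anti-apoptotic expression, was 14.9, 17.1, 16.7 and 17.2 in PBS tumors, 6.18, 4.62, 4.85 and 5.81 in GLA-SE tumors and 19.0, 20.6, 10.7 and 2.39 in SE tumors. All GLA-SE tumors were below all PBS tumors, by 3.09-fold on average. The ratio of Bcl2l1 to Bcl2 was 45.3 to 61.3 in PBS and 15.6 to 25.5 in GLA-SE tumors, 2.94-fold lower, and the log2 ratio of Cdkn1a to Cdk1 was 2.88 to 3.46 in PBS and 4.01 to 5.77 in GLA-SE tumors, 3.23-fold higher. Each of the 3 had an exact two-sided permutation p of 0.0286, the smallest that 4 against 4 tumors allow, and 0.143 after adjustment over 15 tests of 5 ratios in 3 comparisons, so none passed the correction. On the reference scale Bax and Bcl2l1 changed little (log2 fold changes -0.05 and 0.03), so both ratios to Bcl2 mostly repeat the change of Bcl2. The counts come from whole tumors, so the ratios do not describe a balance within single cells.

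Relative to the B cell markers, neither proliferation gene separated GLA-SE from PBS tumors. The log2 ratio of Birc5 to the B cell list was -1.03 ± 0.26 in GLA-SE and -0.87 ± 0.05 in PBS tumors (SD, n = 4, exact permutation p = 0.314), and that of Cdk1 was -4.37 ± 0.25 and -4.58 ± 0.26 (SD, n = 4, exact permutation p = 0.314). In SE tumors they were -1.05 ± 0.33 and -4.65 ± 0.18. The SE tumors spread widely for Bax to Bcl2 (log2 ratio 3.32 ± 1.44, against 4.04 ± 0.10 in PBS tumors), and their log2 ratios of Cdkn1a to Cdk1 were 3.40 and 3.39 in replicates 1 and 2 and 4.93 and 4.90 in replicates 3 and 4. None of the 10 ratio tests that involved SE tumors had an exact p under 0.05, with values from 0.0857 to 0.914. The ratios to Bcl2 depended on SE replicate 4, and SE replicates 1 to 3 were above every GLA-SE tumor for both. Without SE replicate 4, GLA-SE against SE log2 differences were -1.60 for Bax to Bcl2 and -2.10 for Bcl2l1 to Bcl2, against -0.91 and -1.33. In SE against PBS tumors they were -0.03 and 0.54, against -0.72 and -0.23. With 3 against 4 tumors the smallest possible exact p is 0.0571, so no such test could pass 0.05.

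**Figure D3:**
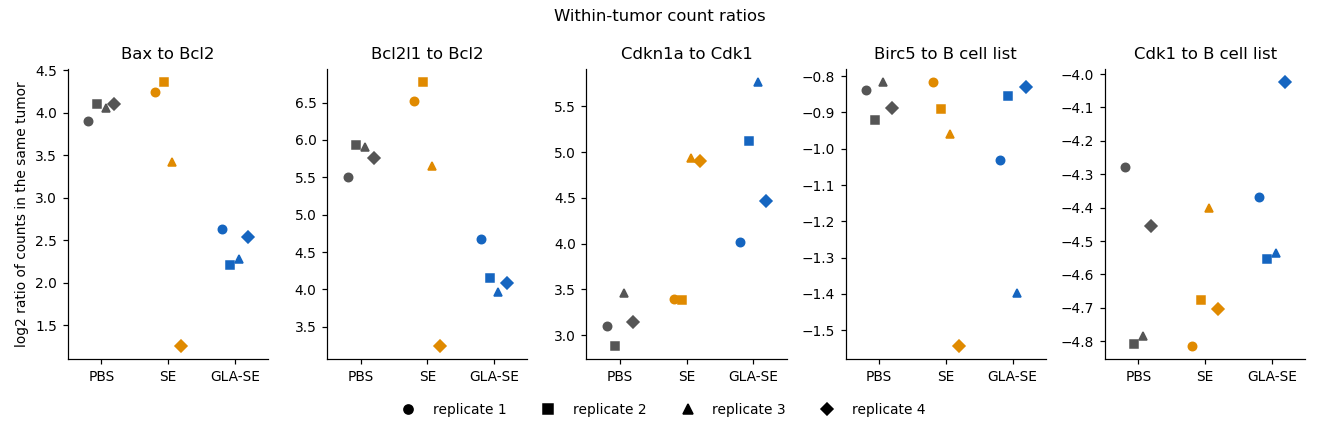
Log2 ratios of counts within each tumor (vertical axes, pseudocount of 1) for 5 gene pairs, by treatment group, with symbols for the replicate. The 4 GLA-SE tumors lie below the 4 PBS tumors for Bax to Bcl2 and Bcl2l1 to Bcl2 and above them for Cdkn1a to Cdk1, and the 2 panels relative to the B cell markers overlap.

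The partners of these genes on the panel were counted in fixed lists, some of which contain genes already described. Over the whole panel 68.4% of genes were called higher and 0.4% lower in GLA-SE against PBS tumors on the reference scale. Panel median scaling called 8.13% higher and 40.9% lower, and TMM scaling 19.7% and 22.4%. These are the shares to set beside the counts of each list below, by direction and scaling. In death receptor signaling 8 of 12 genes were higher in GLA-SE than in PBS tumors and 0 lower, with a median log2 fold change of 0.93 beside 0.90 for the panel. Tnfaip3, a deubiquitinase induced by NF-kB that restrains TNF signaling, was at 297 to 395 in PBS and 628 to 2737 in GLA-SE tumors (1.86, adjusted p = 0.00788, edgeR). It was 1.09 without GLA-SE replicate 3. Tnfrsf1b, the second TNF receptor, was at 243 to 311 and 584 to 2048 (1.85, adjusted p = 0.00402; 1.25 without that tumor). Tnfrsf1a, the death domain receptor of TNF, was at 326 to 460 and 846 to 1146 (1.36, adjusted p = 0.000238). All 3 stayed above 0 under both other scalings. Of the 12 genes, panel median scaling called 0 higher and 5 lower, and TMM scaling 2 higher and 3 lower.

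Xaf1, which antagonizes the caspase inhibitor XIAP, was at 119 to 175 in PBS, 336 to 433 in GLA-SE and 114 to 498 in SE tumors. It rose by 1.32 on the log2 scale in GLA-SE against PBS tumors (adjusted p = 0.000395, edgeR), and was at 0.05 and 0.42 under panel median and TMM scaling. Casp1, the inflammasome caspase, was at 956 to 1070 in PBS and 1186 to 1490 in GLA-SE tumors and rose by 0.45 (adjusted p = 0.00614, edgeR), a direction that turned to -0.84 under panel median and -0.46 under TMM scaling.

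In the p53 list 8 of 11 genes were higher and 0 lower, with a median of 0.41, below the panel's 0.90. Panel median scaling called 1 higher and 8 lower, and TMM scaling 2 higher and 7 lower. Pml, the scaffold of PML nuclear bodies and an interferon-induced gene, rose by 1.67 (319 to 398 in PBS and 862 to 1549 in GLA-SE tumors, adjusted p = 0.000239, edgeR) and stayed above 0 under panel median (0.34) and TMM scaling (0.73). Fas, a death receptor, rose by 1.08 (adjusted p = 0.00823) and Tnfrsf10b, the receptor of TRAIL, by 0.63 (adjusted p = 0.0120). Their values were -0.25 and -0.67 under panel median scaling and 0.14 and -0.29 under TMM.

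In the cell cycle and growth list 2 of 15 genes were higher, 1 was lower and the median was -0.05, while under panel median and TMM scaling all 15 were lower. Abl1, a tyrosine kinase, was at 0.41 (adjusted p = 0.0354, edgeR) and Atm, the kinase of the DNA damage response, at 0.35 (adjusted p = 0.0276), with directions that turned to -0.87 and -0.96 under panel median and to -0.49 and -0.58 under TMM scaling. The call of Abl1 was lost without PBS replicate 1, 2 or 3 or GLA-SE replicate 1 or 2 (adjusted p up to 0.0972), and that of Atm without any PBS tumor or without GLA-SE replicate 2 (up to 0.0720). Anp32b fell by 0.28 (adjusted p = 0.0125), from 14264 to 15655 in PBS to 11409 to 12944 in GLA-SE tumors. In SE against PBS tumors 0 genes of any of these lists were called.

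Autophagy genes were higher in 4 of 5 cases on the reference scale, Atg7 by 0.76 (adjusted p = 0.00350, edgeR), Atg10 by 0.57 (adjusted p = 0.0384) and Atg5 by 0.39 (adjusted p = 0.0213), all below 0 under panel median and TMM scaling, which called 5 and 3 of the 5 genes lower and 0 higher. The Atg10 call was lost without PBS replicate 2, 3 or 4 or GLA-SE replicate 2 or 3 (adjusted p up to 0.0978), and the Atg5 call without PBS replicate 3 or 4 or GLA-SE replicate 1 (up to 0.0658). Of the NF-kB subunits, which can induce Bcl2 and Bcl2l1, 3 of 5 were higher: Relb by 0.81 (adjusted p = 0.00675), Rela by 0.46 (adjusted p = 0.0332) and Nfkb1 by 0.45 (adjusted p = 0.0236). Their directions turned under panel median (-0.53, -0.86 and -0.87) and TMM scaling (-0.13, -0.47 and -0.48), which called 5 and 4 of the 5 subunits lower and 0 higher. Nfkb2 and Rel were not called on the reference scale. The call of Rela was lost without any PBS tumor or without GLA-SE replicate 4 (adjusted p up to 0.0788) and that of Nfkb1 without PBS replicate 2, 3 or 4 (up to 0.0643), and both were 0.29 without GLA-SE replicate 3.

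The largest changes among the genes named here were those of 3 cytotoxic effectors. Their list held granule proteins of T and NK cells and Fasl, the ligand of Fas. Gzma was at 111 to 225 in PBS and 799 to 2372 in GLA-SE tumors (log2 fold change 3.12, adjusted p = 0.000296, edgeR), Gzmb at 82.2 to 205 and 574 to 1149 (2.67, adjusted p = 0.000333) and Prf1, the pore-forming perforin, at 68.2 to 250.2 and 511 to 755 (2.06, adjusted p = 0.00211). The 3 were called higher under panel median and TMM scaling too. The other 3 of 6 were not called on the reference scale, and panel median scaling called 1 of them lower. In GLA-SE against SE tumors Gzmb (2.80, adjusted p = 0.00777) and Prf1 (2.23, adjusted p = 0.0131) were higher, the only genes of these pathway lists that were called in that comparison. The call of Prf1 was lost without GLA-SE replicate 2 or 4 (adjusted p = 0.0523 and 0.0530) and under panel median scaling (0.113), and that of Gzmb under panel median (0.126) and TMM scaling (0.0643).

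**Figure D4:**
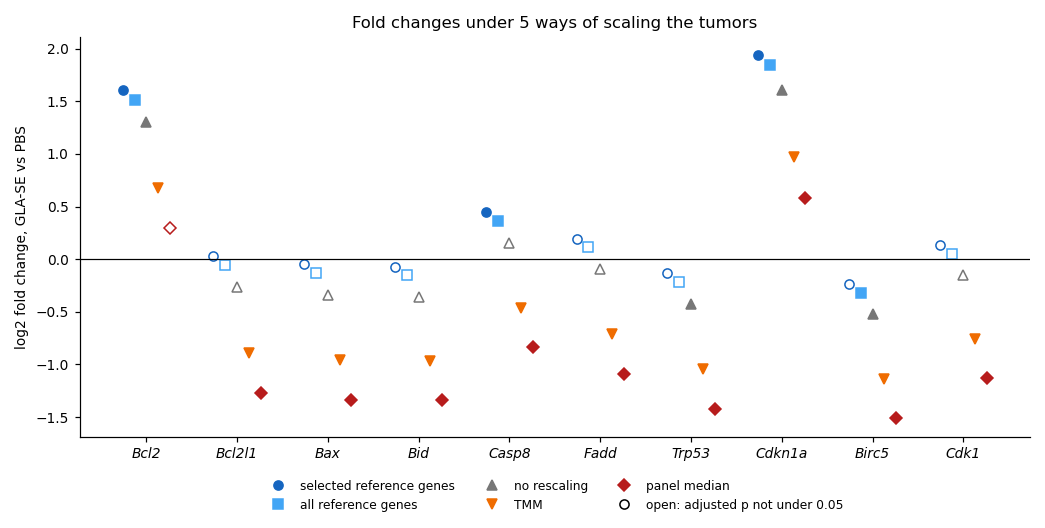
Log2 fold changes of the 10 genes in GLA-SE against PBS tumors (vertical axis) under 5 ways of scaling the tumors, filled where the adjusted p was under 0.05. Bcl2 and Cdkn1a stay above 0 in each, Casp8 goes from 0.44 with the selected reference genes to -0.84 with the panel median, and the other 7 genes go from between -0.24 and 0.20 to between -1.09 and -1.51.

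Across these scalings the sign turned for Bcl2l1, Casp8, Fadd and Cdk1 and held for the other 6 genes. Bcl2 (0.68 under TMM and 0.30 under panel median scaling) and Cdkn1a (0.98 and 0.58) remained above 0, while Bax, Bid, Trp53 and Birc5 lay between -0.96 and -1.14 under TMM and between -1.34 and -1.51 under panel median scaling. All 4 were below the panel's median under each scaling shown.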

How the data were processed

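Counts of barcoded probes for 770 genes in 12 tumors were read from the table the authors deposited. The study's methods describe nSolver normalization, but the deposited counts were whole numbers from 1 to 188888 whose totals and reference genes differed between tumors, so they were treated as not normalized. Groups came from the labels. The geNorm procedure kept 16 of 20 reference genes over the 12 tumors (dropping Alas1, Eef1g, G6pdx and Gusb), and their geometric mean gave each tumor's scale factor. The other 750 genes were compared with edgeR 4.0.16 (R 4.3.3, quasi-likelihood test, 8 tumors per comparison, no filter on low counts, no covariates) and adjusted by Benjamini-Hochberg with a threshold of 0.05, with 95% intervals from the same fit. Count ratios (pseudocount 1) were compared by exact permutation over 70 assignments, two-sided. All 3 comparisons share tumors.

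Alternatives were a filter of 20 counts in 4 tumors, other scalings, all 12 tumors in 1 fit, a replicate block, DESeq2 1.42.0, limma 3.58.1, other pseudocounts and leaving out each tumor. For genes of the lists, other scalings and left-out tumors were added after seeing the data. On simulated counts the fit called 12%, 60% and 98% of genes changed 1.5-, 2- and 4-fold in GLA-SE against PBS tumors, 4%, 32% and 70% in SE against PBS and 2%, 8% and 70% in GLA-SE against SE tumors, so small changes could be missed. The simulation changed 200 of 750 genes, as many up as down, and the fit was given the true scaling. In the data most genes called in GLA-SE against PBS tumors were higher and calls depended on the scaling. These shares therefore need not hold there. Precision is limited by 4 tumors per group and, for Cdk1, by low counts.

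The genes and lists were chosen with earlier results of these data known. Named were the 10 genes, the 3 genes of each pathway list with the largest absolute change among those called in GLA-SE against PBS tumors, the 3 genes most correlated with Cdkn1a, Birc5, Cdk1 and Bcl2l1 (mean count of at least 20) and, after their values were seen, Ms4a1 and Cd79b as the B cell markers called. The 10 symbols were all matched in RefSeq (GRCm38.p6), the source of the printed sequences, read with Python 3.11.15. An item that the rule names is not reported here. Figures were drawn with matplotlib 3.10.9.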

Additional observations from a re-analysis of the deposited data

Results flagged for a closer look

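3 of the 45 groups of 4 tumors searched (10 genes and 5 ratios in 3 treatment groups) held a tumor far from the others by Dixon's criterion, where chance would give about 2.25. Bax was at 1005 reference-scaled counts in GLA-SE replicate 3, against 812 to 836 in the other GLA-SE tumors. Bax was at 611 in SE replicate 4, against 906 to 966 in the other SE tumors. Birc5 was at 407 in GLA-SE replicate 3, against 495 to 513 in the other GLA-SE tumors. GLA-SE replicate 3 was also the tumor with the highest Cdkn1a count (2525) and the highest sum of monocyte and macrophage markers (17996).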

How the results depend on the processing

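Of 30 fold changes, the calls and directions of Bcl2 and Cdkn1a in GLA-SE against PBS tumors held in all alternatives except for Bcl2 under panel median scaling (0.30). Panel median scaling called 9 of the 10 genes in that comparison and TMM scaling 10, against 3, and the panel calls were 368 (61 higher, 307 lower) and 316 (148 higher, 168 lower), against 516. The fit of all 12 tumors called 255 panel genes. Directions that turned in GLA-SE against PBS tumors were, for panel median, TMM and no rescaling, Bcl2l1 (-1.27, -0.89 and -0.27), Fadd (-1.09, -0.71 and -0.093) and Cdk1 (-1.13, -0.76 and -0.15), and for panel median and TMM Casp8 (-0.84 and -0.46). Bcl2l1 also turned with all reference genes (-0.054) and ranged from -0.033 to 0.13 when single tumors were left out.

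In SE against PBS tumors Casp8 turned under panel median, TMM and no rescaling (-0.23, -0.23 and -0.19), DESeq2 called 38 panel genes against 0, and the log2 ratio of Cdk1 to the B cell list was 0.054 with a pseudocount of 10, against -0.07. Leaving out single tumors gave -0.14 to 0.053 for Bax, -0.16 to 0.070 for Bid and -0.20 to 0.050 for Trp53. In GLA-SE against SE tumors the panel calls were 0 under panel median scaling, 3 under TMM, 89 without rescaling, 79 in the fit of 12 tumors and 106 in DESeq2, and 4 to 105 when single tumors were left out (105 without SE replicate 4, and 4 to 9 without GLA-SE replicate 2 or 4 or SE replicate 1, 2 or 3), against 16, with 0 to 2 of the 10 genes called. There, under panel median and TMM scaling, Bax (-1.04 and -0.55), Casp8 (-0.61 and -0.20), Birc5 (-1.07 and -0.58) and Cdk1 (-0.63 and -0.19) turned. Bax and Birc5 were -0.034 and -0.049 with all reference genes, Trp53 and Birc5 0.016 and -0.045 without rescaling, and Bid 0.038 with reference genes selected within the comparison and 0.022 and 0.021 in limma with a pseudocount of 1 and of 10. Leaving out single tumors gave -0.10 to 0.095 for Bax, -0.14 to 0.087 for Bid, -0.18 to 0.063 for Trp53 and -0.16 to 0.11 for Birc5. The causes were not tested.

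The replicate numbers did not pair the tumors (correlations of same-numbered deviations from -0.25 to 0.18). With a replicate block, 0 panel genes were called in GLA-SE against SE tumors and Bid was 0.019 there. The block changed the call of none of the 10 genes.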
